A study of Mus musculus with 12 samples.

Results

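Histone chaperones are described here by 10 genes: the CAF-1 subunits Chaf1a, Chaf1b and Rbbp4, the Rbbp4 paralog Rbbp7, and Asf1a, Asf1b, Nasp, Hira, Daxx and Atrx. A gene was read from the probe set that names it alone, and where a gene had several such probe sets, from the one with the highest mean log2 intensity over the 12 arrays. The 10 genes are 10 of 22180 genes with a probe set of their own, and all 10 were among the 17860 that passed the filter on low values. Each of the 10 lay above the array median on 12 of 12 arrays. Rbbp4 had 2 probe sets of its own, of which the brighter one was used (the dimmer one lay at log2 4.44 to 5.04 over the arrays), and the other 9 genes had 1 each.

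The cells were mouse embryonic fibroblasts from E13.5 embryos of the strain mix C57Bl/6 with 129X1/SvJ that carried a tetracycline-responsive cassette for the reprogramming factors Oct4, Klf4, Sox2 and c-Myc (OKSM) at Col1a1 and the transactivator M2rtTA at R26. All 4 groups carried both alleles, received a retroviral hairpin and were kept in doxycycline, serum and LIF: a Renilla luciferase hairpin (control) or a hairpin labelled Chaf1a knockdown, each for 3 or for 6 days, with 3 arrays per group. The protocol text calls the second hairpin a CAF-1 hairpin, and its target sequence was not given in the sources used here. No uninduced cells were analysed here, so day 3 is the earliest point and no fibroblast baseline is available. Nothing in the labels tells if replicates are separate embryos or separate cultures, so p-values here measure only the spread among these samples, which may be technical. In such bulk RNA, fewer cells that express a gene and less RNA of it per cell cannot be told apart.

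Histone chaperones escort newly made or recycled histones and hand them to DNA. CAF-1 is bound by the sliding clamp PCNA and places H3-H4 on freshly replicated DNA; its large subunit is encoded by Chaf1a, its middle subunit by Chaf1b, and its small subunit by Rbbp4, which NuRD, Sin3 and PRC2 complexes also contain. Asf1a and Asf1b pass H3-H4 to CAF-1 or to Hira, Nasp guards the soluble H3-H4 pool, and Hira and the Daxx-Atrx pair deposit the replacement histone H3.3 outside replication. Chaf1a, Chaf1b and Asf1b are known as genes of cycling cells. In reprogramming, CAF-1 is known as a barrier to the loss of somatic identity, which is the question that the series title poses.

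Promoter windows are shown for the 5 genes whose arrays of the 2 days did not overlap with either hairpin: Chaf1a, Chaf1b and Asf1b were lower at day 6, and Rbbp4 and Atrx were higher. Of all genes, 12.9% were lower and 8.32% higher at day 6 in this way with both hairpins. Each window runs from 250 bases before to 50 bases after the annotated start, 5′ to 3′ on the gene's strand, from RefSeq on GRCm38.p6. Capitals mark 3 kinds of letters searched on both strands: E2F letters (TTCCCGC or TTGGCGC), cell cycle homology letters (TTTGAA), and the CCAAT box (CCAAT).
Chaf1a, chr17:56040166-56040465, plus strand: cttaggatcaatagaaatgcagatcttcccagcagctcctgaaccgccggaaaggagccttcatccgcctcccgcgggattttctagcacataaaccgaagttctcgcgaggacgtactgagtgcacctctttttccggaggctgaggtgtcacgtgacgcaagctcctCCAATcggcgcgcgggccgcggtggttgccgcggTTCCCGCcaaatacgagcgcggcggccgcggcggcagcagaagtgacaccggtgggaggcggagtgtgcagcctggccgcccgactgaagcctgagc
Chaf1b, chr16:93883651-93883950, plus strand: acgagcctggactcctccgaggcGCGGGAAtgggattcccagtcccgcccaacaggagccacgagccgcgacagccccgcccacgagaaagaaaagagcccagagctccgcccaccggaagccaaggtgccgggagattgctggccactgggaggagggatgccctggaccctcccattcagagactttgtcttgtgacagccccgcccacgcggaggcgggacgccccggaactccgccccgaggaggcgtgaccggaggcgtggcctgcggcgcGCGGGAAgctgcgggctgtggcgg
Asf1b, chr8:83955444-83955743, plus strand: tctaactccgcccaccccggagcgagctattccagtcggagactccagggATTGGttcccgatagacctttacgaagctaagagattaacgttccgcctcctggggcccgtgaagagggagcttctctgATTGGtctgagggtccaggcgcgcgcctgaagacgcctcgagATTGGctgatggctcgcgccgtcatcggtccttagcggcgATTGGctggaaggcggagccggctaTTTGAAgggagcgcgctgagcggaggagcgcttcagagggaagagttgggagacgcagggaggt
Rbbp4, chr4:129335321-129335620, minus strand: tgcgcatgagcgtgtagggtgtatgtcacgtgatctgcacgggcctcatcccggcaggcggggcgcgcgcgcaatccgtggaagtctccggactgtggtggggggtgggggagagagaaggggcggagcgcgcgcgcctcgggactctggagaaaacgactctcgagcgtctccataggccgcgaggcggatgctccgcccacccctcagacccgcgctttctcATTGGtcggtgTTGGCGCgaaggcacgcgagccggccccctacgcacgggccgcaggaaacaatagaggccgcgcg
Atrx, chrX:105929323-105929622, minus strand: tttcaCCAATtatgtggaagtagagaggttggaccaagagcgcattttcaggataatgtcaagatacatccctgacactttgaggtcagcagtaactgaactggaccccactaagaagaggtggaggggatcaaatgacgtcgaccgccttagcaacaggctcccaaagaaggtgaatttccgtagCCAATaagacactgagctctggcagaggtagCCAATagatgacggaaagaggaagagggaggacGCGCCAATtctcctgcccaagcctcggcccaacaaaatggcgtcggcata
In these windows Chaf1a has TTCCCGC at -47 and CCAAT at -81, counted from the start as 1, and Chaf1b has the reverse form GCGGGAA at -227 and at 27. Asf1b has no E2F letters, but it has TTTGAA at -14 and ATTGG, the reverse of CCAAT, at 4 places from -200 to -39. Rbbp4 has TTGGCGC at -15 and ATTGG at -26. Atrx has GCGCCAA at 1, which overlaps a CCAAT at 4, and CCAAT at -245, -64 and -33. E2F letters of either form were therefore present in windows of genes that were lower at day 6 and of genes that were higher. All 10 genes had a window in the table: 4 held E2F letters, 2 held TTTGAA (Asf1b and Nasp) and 8 held CCAAT. Of 32851 promoter windows of the same length, 6.81% held E2F letters of either form (4.6% TTCCCGC and 2.45% TTGGCGC), 17.9% held TTTGAA and 37.4% held CCAAT. These matches describe letters and do not show binding.

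The values are RMA intensities, and levels and differences are given on the log2 scale. The arrays had medians of 39.5 to 43.3 before the log, and arrays of a group correlated over probe sets at Pearson's r of 0.991 to 0.995. The fibroblast marker Vim stood at 13.26 to 13.37 on every array, 8 of 9 fibroblast markers passed the low-value filter, and Lum was below it on all arrays. The second day 3 knockdown array stood apart for the interferon-stimulated gene Bst2, at 10.64 against 8.06 to 9.43 on the other 11 arrays. The day 3 differences of the chaperone genes between hairpins are also given without this array, but those of the gene lists are not. With limma and Benjamini-Hochberg adjustment over 17860 genes, 0 genes passed an adjusted p of 0.05 between hairpins at day 3 (percent called 0, with 1074 genes or 6.01% at an unadjusted p under 0.05). At day 6, 7 genes passed (0.0392%, all higher in knockdown), and between days 17.6% passed with the control hairpin and 17.9% with the Chaf1a hairpin.

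Chaf1a itself, the labelled target, was lower on all 3 knockdown arrays than on all 3 control arrays at day 3. Control values at day 3 were 7.44, 7.72 and 7.42 for replicates 1, 2 and 3, and knockdown values were 7.35, 7.18 and 7.19. The knockdown mean was 82.0% of control (95% interval 71.3% to 94.5%), a log2 difference of -0.29 (SE 0.09), and this did not pass the test over all genes (limma, unadjusted p = 0.00981, adjusted p = 0.726). Groups that do not overlap in the lower direction were found for 5.59% of all genes at this day. The second replicate carried the widest gap: the difference was -0.16 without replicate 2 of both hairpins, -0.19 without the second control array, and -0.26 without the second knockdown array.

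At day 6 the control values of Chaf1a were 7.06, 7.30 and 7.31, and the knockdown values were 7.04, 7.16 and 7.11. Knockdown was below control in each of the 3 same-number pairs, but the groups overlapped because the first control array was as low as the knockdown arrays. The difference was -0.12 (95% interval -0.32 to 0.09, 92.2% of control, limma adjusted p = 0.999). It ran from -0.20 without the first control array to -0.08 without the second and -0.07 without the third, or -0.08 without replicate 3 of all groups, and none of these passed. The difference between the knockdown effects at the 2 days was 0.17 (SE 0.13, limma adjusted p = 0.991), so a smaller effect at day 6 was not shown.

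**Figure D1:**
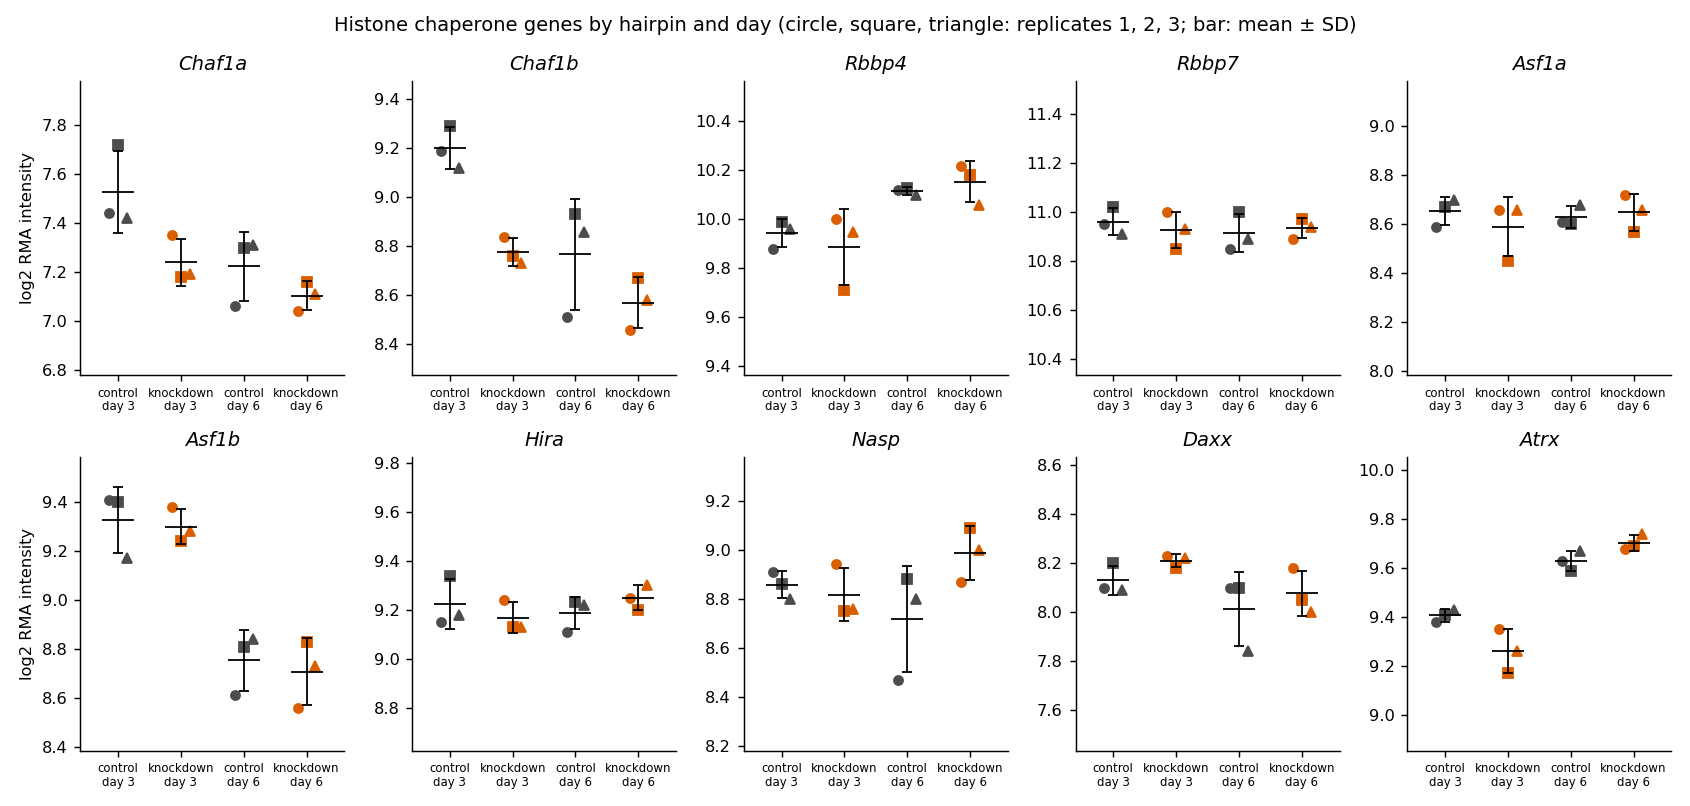
Log2 RMA intensity of each of the 10 chaperone genes on every array (vertical axes span the same log2 range around each gene's mean), by hairpin and day, with circle, square and triangle for replicates 1, 2 and 3 and a bar for the mean ± SD of 3 arrays. Chaf1a and Chaf1b are highest in control at day 3, Asf1b is lower at day 6 with both hairpins, and Atrx is higher at day 6 with both.

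Chaf1b, whose product binds the Chaf1a protein within CAF-1, had a wider fitted difference at day 3 than the labelled target. The 2 genes were not compared by a test, and their 95% intervals overlapped (log2 -0.65 to -0.21 for Chaf1b and -0.49 to -0.08 for Chaf1a). Control values of Chaf1b at day 3 were 9.19, 9.29 and 9.12, and knockdown values were 8.84, 8.76 and 8.73. The groups lay clearly apart, and the knockdown mean was 74.3% of control (95% interval 63.9% to 86.6%). The log2 difference of -0.43 (SE 0.10) had rank 24 by p among 17860 genes and still did not pass (limma, unadjusted p = 0.00109, adjusted p = 0.697). Without the second knockdown array it was -0.42. At day 6 the control values were 8.51, 8.93 and 8.86 and the knockdown values 8.46, 8.67 and 8.58. Each knockdown array was below its same-number control, while the low first control array made the groups overlap. The day 6 difference was -0.20 (95% interval -0.42 to 0.02, limma adjusted p = 0.999), and it was -0.33 without the first control array and -0.11 without the second. The knockdown effects at the 2 days differed by 0.23 (SE 0.14, limma adjusted p = 0.99).

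Both large subunits also fell with time in the control hairpin. From day 3 to day 6 the control mean of Chaf1a went from 7.53 ± 0.17 to 7.22 ± 0.14 (SD, n = 3), a change of -0.30 (SE 0.09, limma adjusted p = 0.0419). That of Chaf1b went from 9.20 ± 0.09 to 8.77 ± 0.23, a change of -0.44 (SE 0.10, limma adjusted p = 0.0107). The arrays of the 2 days did not overlap for either gene, as was found in this direction for 19.3% of all genes. The Chaf1a call was lost (adjusted p 0.0521 to 0.203) without any 1 of the 3 day 6 control arrays, without the second day 3 control array, or without replicate 1, 2 or 3 in all groups. The Chaf1b call was lost without replicate 2 (0.0556) or replicate 3 (0.0692) in all groups.

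In the knockdown the means of Chaf1a were 7.24 ± 0.09 at day 3 and 7.10 ± 0.06 at day 6, a difference of -0.14 (limma adjusted p = 0.366). Those of Chaf1b were 8.78 ± 0.06 and 8.57 ± 0.11, a difference of -0.20 (limma adjusted p = 0.195). The arrays of the 2 days were apart for both genes (18.9% of all genes in this direction), but neither passed the test. Since the test of the difference between hairpins is the one given above (0.17 and 0.23), the fall in control was not shown to differ from that in knockdown. The order of groups was the same for both genes: control at day 3, then knockdown at day 3, control at day 6 and knockdown at day 6. Only the first step, from control at day 3 to knockdown at day 3, separated neighbouring groups; knockdown at day 3 and control at day 6 differed by 0.02 for Chaf1a and 0.01 for Chaf1b.

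Over the 12 arrays, each of the 2 genes was the other's nearest pattern. Likeness was measured as the root-mean-square difference between values that were centred on a gene's mean and divided by its SD, over 17859 other genes. The pair differed by 0.28 on that scale, and each gene ranked 1 for the other. The next named genes for Chaf1a were Jpt1 (0.33), Plekha8 (0.35), Vdac3 (0.37) and Gtf3c6 (0.39). Those for Chaf1b were Olfr1360 (0.38), Entpd7 (0.42), Zbed4 (0.42) and Nsd2 (0.42). The points share arrays and normalization. Asf1b was less like them, at rank 782 for Chaf1a (0.71) and rank 429 for Chaf1b (0.69), and Rbbp4, the small CAF-1 subunit, did not follow the pair (1.56 and 1.62).

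**Figure D2:**
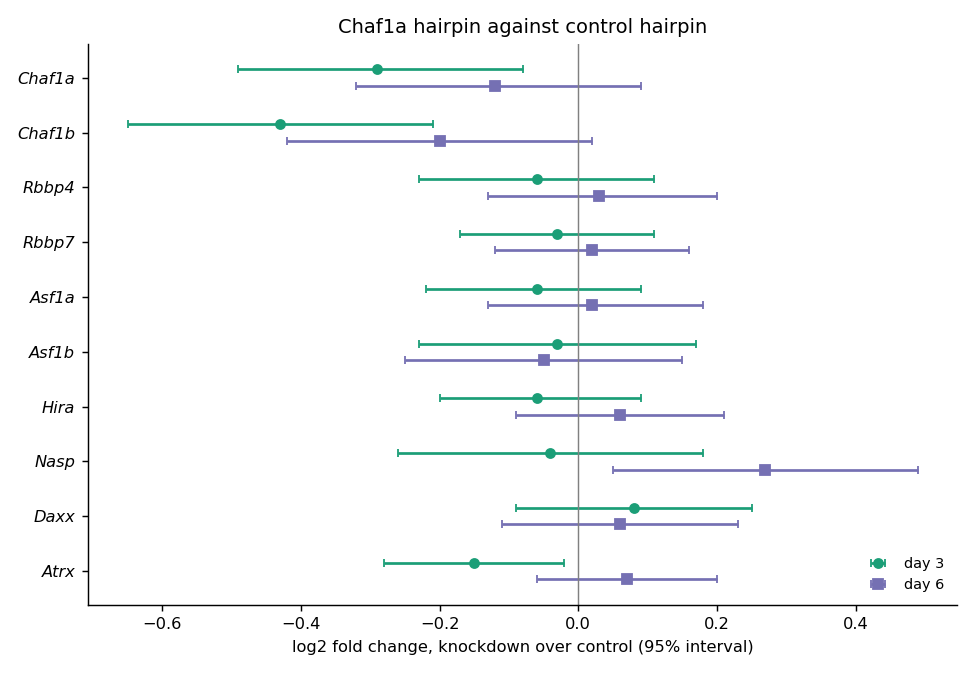
Log2 fold change of each chaperone gene in the Chaf1a hairpin over the control hairpin, with its 95% interval from limma, at day 3 (circles) and day 6 (squares). Chaf1b (-0.43) and Chaf1a (-0.29) lie farthest below 0 at day 3 and Nasp (0.27) farthest above it at day 6, and none passed the test over all genes.

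Genes of cycling cells moved with time as well, and their level is given beside the CAF-1 values. The list of S phase and cell cycle markers held 19 genes, of which 18 were measured. From day 3 to day 6 in control 7 of 18 fell and none rose (list median -0.28, all genes 0.01), where 10.6% of all genes fell. With an array or replicate left out 3 to 7 fell, and under the other alternatives 5 to 8. Among the 7 were the ribonucleotide reductase subunit Rrm2 (-0.88, SE 0.09, limma adjusted p = 6.62e-05) and the replicative helicase subunits Mcm4 (-0.54, SE 0.10, 0.00349) and Mcm5 (-0.52, SE 0.12, 0.00896). In knockdown 1 of 18 fell, which was Rrm2 (-0.57, SE 0.09, limma adjusted p = 0.00112; list median -0.16). Of all genes 10.5% fell in knockdown, and 1 to 2 of the list did so with an array or replicate left out. For the difference between hairpins in the change with time, 0 of 18 passed (lowest limma adjusted p = 0.972), so a different fall was not shown. Between hairpins 0 of 18 passed at either day, with list medians of -0.06 at day 3 and 0.11 at day 6. The list mean, centred over the 12 arrays, was 0.19, 0.19 and 0.07 in control at day 3 and 0.24, 0.02 and 0.03 in knockdown. At day 6 it was -0.31, -0.06 and -0.16 in control and -0.14, -0.02 and -0.05 in knockdown, so the first control array at day 6, which was low for Chaf1a and Chaf1b, was also the lowest of all 12 for this list.

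Read against that list mean, Chaf1a and Chaf1b were lower in knockdown at both days. This scale was chosen after the values were seen, so it is a description with no test. At day 3 the relative values of Chaf1a were -0.02, 0.25 and 0.08 in control and -0.16, -0.11 and -0.11 in knockdown; at day 6 they were 0.10, 0.09 and 0.20 in control and -0.10, -0.10 and -0.11 in knockdown. The groups were apart at both days, with differences of -0.23 and -0.23; at day 3 this held for 0.834% of genes. For Chaf1b the differences were -0.37 and -0.31, with relative values of -0.01, 0.17 and 0.19 in control and -0.23, -0.14 and -0.20 in knockdown at day 6. On this scale 25 of 17860 genes (0.14%) were lower in knockdown with no overlap at both days; at day 6 alone it was 14.5%, since the list mean itself was higher in knockdown. On the same scale the difference between days was 0.03 for Chaf1a with either hairpin, and -0.11 in control and -0.04 in knockdown for Chaf1b, with overlapping groups. Whether cell cycling has a part in the CAF-1 values was not tested.

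**Figure D3:**
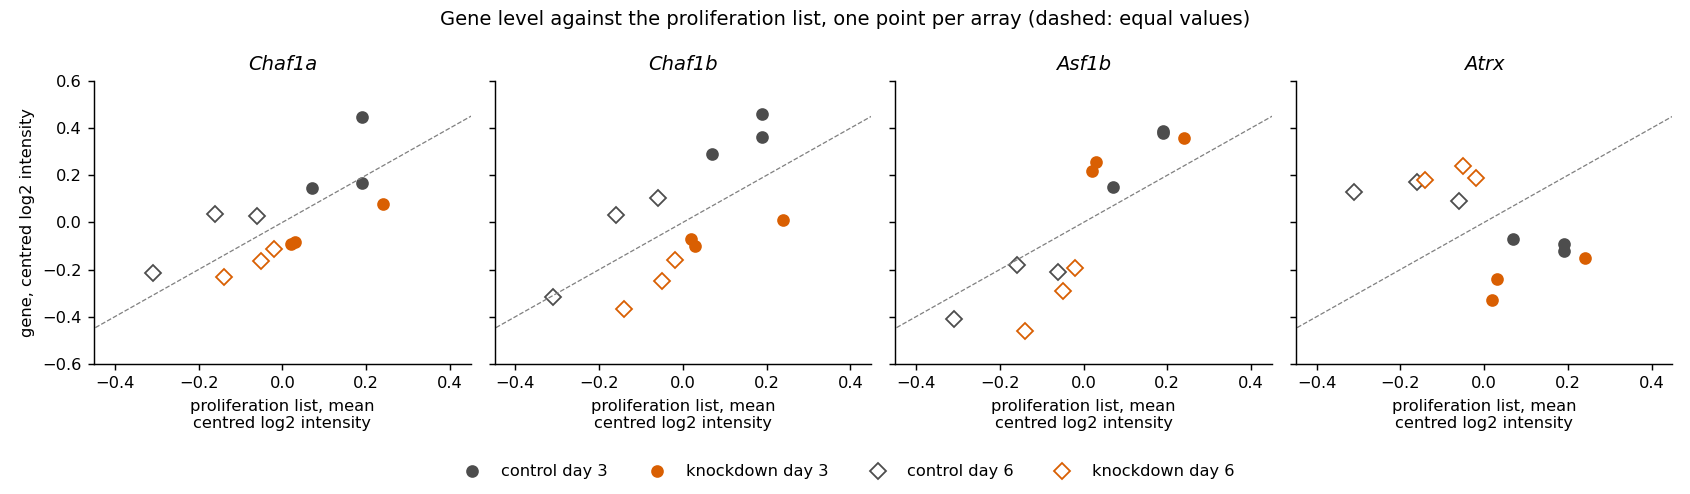
Log2 intensity of Chaf1a, Chaf1b, Asf1b and Atrx on each array (vertical axis, centred on the gene's mean over 12 arrays) against the mean of 18 S phase and cell cycle genes (horizontal axis, centred in the same way), with the dashed line for equal values. All 6 knockdown points of Chaf1a and Chaf1b lie below the line, and Asf1b lies above it at day 3 and below it at day 6 with both hairpins.

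Asf1b, the Asf1 paralog of cycling cells, had the widest fall of the 10 genes between days in both hairpins. Its control values were 9.41, 9.40 and 9.17 at day 3 and 8.61, 8.81 and 8.84 at day 6. Its knockdown values were 9.38, 9.24 and 9.28 at day 3 and 8.56, 8.83 and 8.73 at day 6. Every day 6 array was thus below every day 3 array, whichever the hairpin. It fell by 0.57 on the log2 scale in control (SE 0.09, 67.3% of day 3, limma adjusted p = 0.00135) and by 0.59 in knockdown (SE 0.09, 66.3%, limma adjusted p = 0.000962). Both calls held under each left-out array and each other alternative that was run. Between hairpins it differed by -0.03 at day 3 (95% interval -0.23 to 0.17) and -0.05 at day 6 (-0.25 to 0.15), and the hairpins were 98.2% and 96.7% of control. Relative to the cell cycle list it was still lower at day 6 without overlap, by -0.24 in control and -0.43 in knockdown, which held with both hairpins for 1.38% of genes. On that scale Asf1b was also lower in knockdown than in control at day 6 without overlap (-0.16), as were 14.5% of genes.

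Its paralog Asf1a, which serves replication-independent deposition through Hira as well, lay between 8.45 and 8.72 on all 12 arrays. Its differences were -0.06 and 0.02 between hairpins and -0.02 and 0.06 between days, and none passed (limma adjusted p 0.625 to 0.999). The 4 groups overlapped, so their order carries no information. The 95% intervals of these differences lay between -0.22 and 0.22.

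Nasp, the H3-H4 chaperone of the soluble pool, was at 8.91, 8.86 and 8.80 in control and 8.94, 8.75 and 8.76 in knockdown at day 3. At day 6 it was at 8.47, 8.88 and 8.80 in control and 8.87, 9.09 and 9.0 in knockdown. Each day 6 knockdown array was above its same-number control, and the first control array was the lowest of the 12. The day 6 difference of 0.27 (SE 0.10, 120% of control) did not pass (limma, unadjusted p = 0.0217, adjusted p = 0.999), and it was 0.14 without the first control array and 0.35 without the second. The effects at the 2 days differed by 0.31 (95% interval -0.01 to 0.62, limma adjusted p = 0.972), and the changes with time were -0.14 in control and 0.17 in knockdown (adjusted p 0.398 and 0.302). The latter passed only without replicate 1 in all groups, where it was 0.29 (adjusted p = 0.0433).

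Rbbp4, the WD-repeat subunit shared by CAF-1 and several repressor complexes, was higher at day 6 with both hairpins. Its control values were 9.88, 9.99 and 9.96 at day 3 and 10.12, 10.13 and 10.10 at day 6. Its knockdown values were 10, 9.71 and 9.95 at day 3 and 10.22, 10.18 and 10.06 at day 6. All 6 day 6 arrays were above all 6 day 3 arrays; within a hairpin, 16% of all genes were higher at day 6 without overlap in control and 15.4% in knockdown. The difference was 0.27 in knockdown (SE 0.08, 120% of day 3), where Rbbp4 rose (limma adjusted p = 0.032), and 0.18 in control (SE 0.08, 113%), which did not pass (limma adjusted p = 0.15). The 2 differences with time differed by 0.09 (95% interval -0.15 to 0.33, limma adjusted p = 0.991). The knockdown call was lost (adjusted p 0.0893 to 0.256) without the second day 3 knockdown array, the lowest of all 12 for Rbbp4, without the first or second day 6 knockdown array, or without replicate 1, 2 or 3 in all groups. Between hairpins the differences of Rbbp4 were -0.06 at day 3 and 0.03 at day 6, and neither passed. With the mean of both Rbbp4 probe sets they were -0.14 at day 3 (unadjusted p = 0.0573, limma adjusted p = 0.826) and 0.06 at day 6, and the difference between days in control was 0.09 in place of 0.18.

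Rbbp7, the close paralog of Rbbp4 that is found in the same repressor complexes, stayed between 10.85 and 11.02 on all arrays. Its differences were -0.03 and 0.02 between hairpins and -0.05 and 0.00 between days, and all groups overlapped. The 95% intervals of these 4 differences lay between -0.19 and 0.16. Relative to the cell cycle list, Rbbp7 was lower in knockdown at day 6 without overlap (-0.09), as were 14.5% of genes.

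Atrx, the chromatin remodeller that works with Daxx on H3.3 at repeats and telomeres, was the only one of the 10 whose 4 groups were all apart from their neighbours in level. Its control values were 9.38, 9.41 and 9.43 at day 3 and 9.63, 9.59 and 9.67 at day 6. Its knockdown values were 9.35, 9.17 and 9.26 at day 3 and 9.68, 9.69 and 9.74 at day 6. From low to high the groups were knockdown at day 3, control at day 3, control at day 6 and knockdown at day 6. The hairpins were apart by narrow margins, 9.35 against 9.38 at day 3 and 9.67 against 9.68 at day 6. How many of all genes had 4 groups apart was not counted, so it is not known if this order is unusual. Atrx rose with time by 0.22 in control (SE 0.06, 117% of day 3, limma adjusted p = 0.0205) and by 0.44 in knockdown (SE 0.06, 136%, limma adjusted p = 0.000333). The knockdown call held without each array; the control call was lost (adjusted p 0.0546 to 0.208) without the first day 6 control array, the third one, the first day 3 control array, or replicate 1, 2 or 3 in all groups.

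Between hairpins Atrx differed by -0.15 at day 3 (SE 0.06, 90.2% of control, limma adjusted p = 0.765) and by 0.07 at day 6 (SE 0.06, 105%, adjusted p = 0.999). The difference between these effects was 0.22 (SE 0.08, 95% interval 0.04 to 0.40, unadjusted p = 0.0217), and it did not pass over all genes (limma adjusted p = 0.972). Of all genes, 0.297% had knockdown arrays wholly below control at day 3 and wholly above it at day 6. Without the second day 3 knockdown array the day 3 difference was -0.10. Relative to the cell cycle list the hairpins overlapped at both days (-0.09 and -0.04, where 0.0168% of genes went from wholly below to wholly above control), while the day 6 arrays stayed above the day 3 arrays (0.55 in control and 0.61 in knockdown, a pattern shared by 31.6% of genes on that scale).

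Daxx, which binds H3.3-H4, stood at 8.10, 8.20 and 8.09 in control and 8.23, 8.18 and 8.22 in knockdown at day 3. At day 6 it stood at 8.10, 8.10 and 7.84 in control and 8.18, 8.05 and 8.0 in knockdown. All groups overlapped with their neighbours in level, and the third day 6 control array was the lowest. Its differences with time were -0.12 in control and -0.13 in knockdown (limma adjusted p 0.354 and 0.285), so it did not share the rise of its partner Atrx. Between hairpins it differed by 0.08 at day 3 and 0.06 at day 6 (limma adjusted p 0.933 and 0.999).

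Hira, the scaffold of the complex that deposits H3.3 in active chromatin, ranged from 9.11 to 9.34 over the 12 arrays. It differed by -0.06 and 0.06 between hairpins and by -0.04 and 0.08 between days. No comparison passed (limma adjusted p 0.463 to 0.999) and the groups overlapped.

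**Figure D4:**
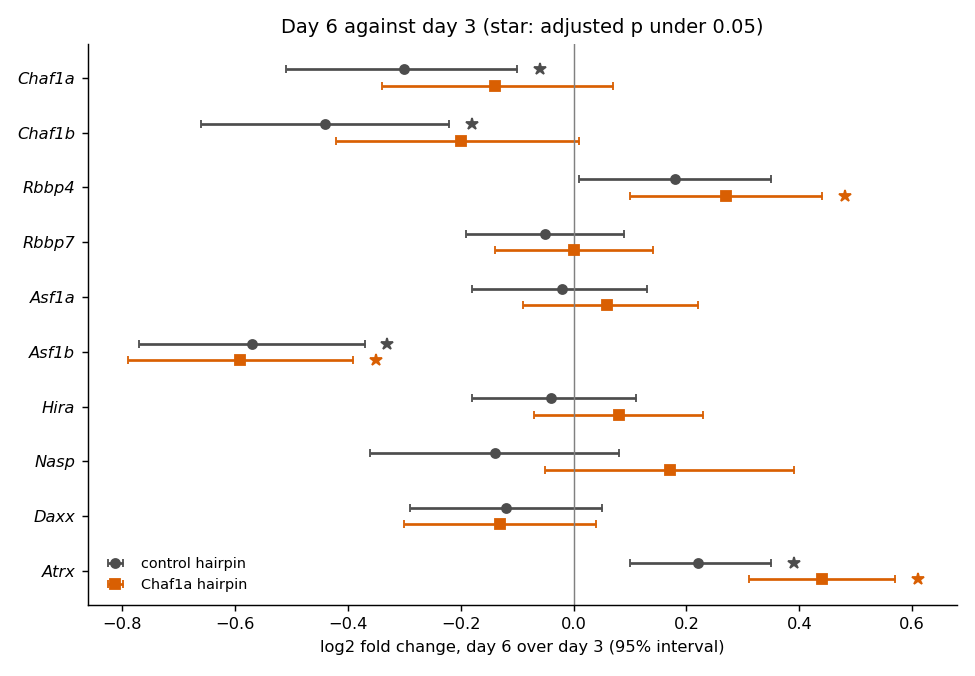
Log2 fold change of each chaperone gene from day 3 to day 6, with its 95% interval from limma, for the control hairpin (circles) and the Chaf1a hairpin (squares), and a star where the adjusted p was under 0.05. Asf1b lies near -0.6 with both hairpins, Chaf1a and Chaf1b carry a star in control, Rbbp4 in knockdown and Atrx in both.

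Counted over the 10 genes, 0 passed between hairpins at day 3. An unadjusted limma p under 0.05 was found for 3 of them, against 6.01% of all genes: Chaf1b, Atrx and Chaf1a, the labelled target itself. A fitted difference below 0 was found for 9 of 10, and the median was -0.06 against -0.01 over all genes, of which 54.2% lay below 0. The count below 0 depended on the second day 3 knockdown array. Without it Rbbp4 (0.031), Rbbp7 (0.008), Asf1a (0.007) and Asf1b (0.005) lay above 0, as Daxx did (0.094). Hira (-0.038), Nasp (-0.005), Chaf1a, Chaf1b and Atrx stayed below 0. Without overlap, 3 of the 10 were lower in knockdown at day 3 (5.59% of all genes) and none was higher (5.21%). At day 6, 0 passed (1 at an unadjusted p under 0.05, where 4.44% of all genes were), 3 of 10 lay below 0 (53.8% of all genes), and the median was 0.03 against -0.01. Without overlap, 1 was higher at day 6 (Atrx, 5% of all genes) and none was lower (5.57%), and none was lower at both days (0.431%). From day 3 to day 6 in control 3 fell (Asf1b, Chaf1b and Chaf1a) and 1 rose (Atrx), where 10.6% of all genes fell and 6.99% rose. In knockdown 1 fell (Asf1b) and 2 rose (Atrx and Rbbp4), where 10.5% fell and 7.46% rose. Arrays lower at day 6 without overlap in both hairpins were found for 3 of 10 against 12.9% of all genes, and higher ones for 2 of 10 against 8.32%. For the difference between the knockdown effects 0 of 10 passed (1 at an unadjusted p under 0.05, against 910 genes or 5.1% of all, of which 0 passed).

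The partners of these chaperones gave few calls between days and none between hairpins at either day. Among 11 genes that supply histones to CAF-1 and Asf1 or act with them at forks, 4 fell in control and none rose (median -0.18 against 0.01). These were Mms22l, the partner of the histone reader Tonsl (-0.41, SE 0.13, limma adjusted p = 0.0457), the helicase subunit and histone binder Mcm2 (-0.32, SE 0.10, 0.0448), the H4 acetyltransferase Hat1 (-0.29, SE 0.09, 0.0368), and the importin Ipo4 (-0.18, SE 0.05, 0.0387). Of all genes 10.6% fell in control. With an array or replicate left out 0 to 3 genes of the list fell in control, and under the other alternatives 0 to 4. In knockdown Ipo4 fell by 0.19 (SE 0.05, limma adjusted p = 0.0314) and Tlk1, a kinase of the Asf1 proteins, rose by 0.20 (SE 0.06, 0.03), with a list median of -0.16. In knockdown 0 to 1 fell and 0 to 1 rose, both with arrays left out and under the other alternatives. Mcm2 and the clamp Pcna are in this list and in the cell cycle list, so the fall of Mcm2 in control was counted in both. Pcna differed by -0.03 and 0.10 between hairpins (limma adjusted p 0.982 and 0.999).

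Of 10 partners of H3.3 deposition 8 were measured. Pml, the nuclear body protein that recruits Daxx and an interferon-stimulated gene, fell in control (-0.38, SE 0.07, limma adjusted p = 0.00197) and in knockdown (-0.32, SE 0.07, 0.0047), while the other 7 did not pass in control. The Hira complex subunit Ubn2 rose in knockdown (0.24, SE 0.07, limma adjusted p = 0.0328), as did the corepressor Trim28 (0.24, SE 0.06, 0.0214). The 2 rises were not both called in any of the 9 settings with an array or replicate left out (0 to 1 of the list higher), and 0 to 2 were higher under the other alternatives. The number lower was 0 to 1 with either hairpin in those 9 settings and 1 under the other alternatives. Over all genes 10.6% fell in control and 7.46% rose in knockdown. The list medians were -0.03 in control and 0.07 in knockdown against 0.01 over all genes.

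Of 19 subunits of NuRD, Sin3 and PRC2 complexes that contain Rbbp4 or Rbbp7, 18 were measured, and none fell between days. The Sin3 subunit Sap30 rose most, by 0.59 in control (SE 0.11, limma adjusted p = 0.00349) and 0.75 in knockdown (SE 0.11, 0.000683). The NuRD ATPase Chd3 rose by 0.21 (SE 0.07, 0.0478) and 0.32 (SE 0.07, 0.00552). In knockdown the ATPase Chd4 (0.22, SE 0.06, 0.0269) and the NuRD subunit Gatad2b (0.20, SE 0.05, 0.014) rose too, which gives 2 of 18 in control and 4 of 18 in knockdown, with list medians of 0.04 and 0.14. Of all genes 6.99% rose in control and 7.46% in knockdown. The list's counts ran from 0 to 4 in control and from 1 to 4 in knockdown with an array or replicate left out, and from 1 to 7 and from 2 to 7 under the other alternatives.

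Of 21 names for H2A-H2B chaperones and FACT, 17 were measured. The nucleosome assembly protein Nap1l2 fell in control (-0.28, SE 0.08, limma adjusted p = 0.0261), and Anp32a, an acidic nuclear phosphoprotein, rose in knockdown (0.27, SE 0.07, 0.0126). The remaining 16 did not pass in either case. With an array or replicate left out each of these counts ran from 0 to 1; under the other alternatives 0 to 2 fell and 0 to 2 rose in control, and 1 rose in knockdown. Of all genes 10.6% fell in control and 7.46% rose in knockdown. Of 5 centromeric histone loading genes 2 were measured, the histone variant Cenpa (-0.27 in control, limma adjusted p = 0.106) and Mis18a (-0.13, 0.611), and neither passed in any comparison.

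Markers of the cells that reprogramming yields, and of cells that a fibroblast culture could hold, were read on the same arrays. Of 5 pluripotent and epithelial markers, 3 were higher in knockdown than in control at day 6 by limma: Cdh1, the epithelial cadherin (1.00, SE 0.13, adjusted p = 0.013), Sall4 (0.78, SE 0.08, 0.00589) and Nanog (0.63, SE 0.06, 0.00261). Epcam, with day 6 means of 5.90 in knockdown and 4.79 in control, and Esrrb, with 4.85 and 4.60, did not pass. Of all genes 0.0392% were higher. The list was chosen with earlier results of these data known, so that share is no independent yardstick for its count. With an array or replicate left out 0 to 3 of the 5 passed, and under the other alternatives 2 to 4. None of the 5 passed at day 3, and for the difference between the knockdown effects at the 2 days 0 of 5 passed (lowest limma adjusted p = 0.0978). The mean of the 5, centred over the 12 arrays, was 0.60 to 0.83 in knockdown and -0.11 to 0.00 in control at day 6, and -0.39 to -0.27 on the 6 arrays of day 3. Of 6 macrophage marker names, 5 had a probe set of their own. Of these 5, 4 passed the low-value filter and Ptprc did not. Cd68 fell with time by 1.19 in control and 1.23 in knockdown (SE 0.07 each). The other macrophage markers past the filter were not called between days. Csf1r changed by -0.10 in control and -0.18 in knockdown (limma adjusted p 0.349 and 0.0656). Cd14 changed by -0.09 and -0.19 (limma adjusted p 0.664 and 0.285), and Adgre1 did not pass either. On day 3 arrays of both hairpins the macrophage list mean, which includes Cd68, ran from 0.15 to 0.26, and on day 6 arrays from -0.29 to -0.15. The endothelial genes Kdr and Cdh5 rose with time in both hairpins, Kdr by 1.00 and 1.25 (SE 0.12 each) and Cdh5 by 0.40 and 0.51 (SE 0.10 each). The other 2 endothelial markers did not pass: the means of Tek, the brightest probe set of the 4, were 10.05 and 9.89 in control and 10.11 and 9.93 in knockdown at days 3 and 6, and those of Pecam1 were 5.47 and 5.47, and 5.36 and 5.38. With an array or replicate left out 1 to 2 of the list rose with either hairpin. None of the 4 passed between hairpins. Their list mean ran from -0.27 to -0.11 on day 3 arrays and from 0.09 to 0.27 on day 6 arrays. Of the 8 fibroblast markers that passed the filter, Pdgfrb rose with time (1.11, SE 0.18, limma adjusted p = 0.00123 in control, and 0.91, SE 0.18, 0.00375 in knockdown) and the other 7 did not pass. The fibroblast list mean was -0.18 to 0.03 over the 6 arrays of day 3. At day 6 it was 0.41 and 0.31 on the first control and knockdown arrays and -0.06 to 0.02 on the other 4, so both first replicates stood apart. Whether cell makeup shifted, and whether it has a part in the time courses of Asf1b, Atrx, Rbbp4 and the CAF-1 pair, was not tested.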

How the data were processed

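Expression was measured on 12 Affymetrix arrays in 4 groups of 3. Per the submitters' processing notes, the deposited intensities come from RMA (version not given in the sources used here), run in Affymetrix Expression Console 1.3.0.187. The molecule is labelled polyA RNA, while the protocol extracts total RNA. The array's genome build was likewise not given. The values ran from 4.71 to 13421, a linear scale, so their log2 was taken. Of 41345 probe sets, 23521 named 1 gene, 1814 several and 16010 none, by GEO's platform annotation.

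Genes were kept when they reached the array's 30th percentile (log2 4.30 to 4.38) on at least 3 arrays. Tests used limma (3.58.1, R 4.3.3), which fitted 1 mean for each group to the 12 arrays with 8 residual and 4.37 prior degrees of freedom. They were two-sided, adjusted by Benjamini-Hochberg over 17860 genes, with a threshold of 0.05. The fit was tested on simulated data. SE is that of a log2 difference, and ± is an SD over 3 arrays. The number of arrays limits the precision. Tables used Python 3.11.15 with pandas 2.3.3, and plots matplotlib 3.10.9.

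The 10 genes, the lists and the motifs were chosen with earlier results of these data known. Named were all 10 genes, for each list up to 4 members past the threshold with the largest change (fewer are printed here), where fewer than 2 passed also the 2 brightest, and the 5 nearest patterns of Chaf1a and of Chaf1b, Gm, Rik and RNA gene names passed over. In deviations from the group means, the 12 pairs of same-number arrays in compared groups correlated at r of 0.137 to 0.373, and the 24 other pairs at -0.279 to -0.012. This contrast is partly built in, since deviations cancel within a group and positive same-number values push the other pairs down. Between groups not compared, same-number pairs ran from 0.001 to 0.197 and other pairs from -0.147 to 0.025. The replicate numbers, which the labels give, were taken to pair the arrays, but the main fit had no replicate term. Alternatives were a replicate block, other filters, the mean of probe sets, renewed quantile normalization, the compared groups alone, array weights, and arrays left out.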

Additional observations from a re-analysis of the deposited data

Results flagged for a closer look

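For Atrx the knockdown effect at day 6 minus that at day 3 was 0.22 on the log2 scale. It stands here because every knockdown array lay below every control array at day 3 and above every control array at day 6. The test of the difference itself gave an unadjusted p of 0.0217 and an adjusted p of 0.972 in limma over 17860 genes. It ranged from 0.158 to 0.288 with arrays left out, and 0.297% of genes had such a pattern.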

How the results depend on the processing

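Of 340 values of the 10 genes under alternatives that kept all arrays, 332 kept their direction and side of the threshold, 4 lost a call and 4 turned sign; with arrays left out, 448 of 510 kept both, 21 lost a call, 1 gained one and 40 turned sign. The cause of these shifts was not tested, except that leaving arrays out leaves fewer samples. The replicate block, which takes same-number arrays as pairs, changed no call among the 10 genes. The numbers of genes called with it were 0 and 6 between hairpins at days 3 and 6, 3367 and 3509 between days in control and knockdown, and 0 for the difference of effects, against 0, 7, 3140, 3200 and 0 without it. A fit of only the groups compared called 2 genes at day 6 in place of 7, having fewer arrays for the spread. With arrays left out the numbers called were 0 to 7 at day 6, 1080 to 2809 between days in control, 1069 to 2610 in knockdown, and 0 throughout at day 3 and for the difference of effects.

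The calls lost with all arrays kept were Chaf1a between days in control, without the low-value filter (adjusted p = 0.0502), in the compared groups alone (0.0895) and with array weights (0.0628), and Rbbp4 between days in knockdown in the compared groups alone (0.0969). Signs turned for values near 0: Asf1b between hairpins at day 3 with array weights (0.04), and between days in control Asf1a (0.028) and Hira (0.017) with renewed quantile normalization and Hira with array weights (0.008). With arrays left out, signs turned between hairpins at day 3 for Rbbp4 (-0.145 to 0.056), Rbbp7 (-0.072 to 0.038), Asf1a (-0.131 to 0.017), Asf1b (-0.104 to 0.042) and Hira (-0.129 to 0.022). At day 6 they turned for Rbbp4 (-0.001 to 0.083), Rbbp7 (-0.011 to 0.066), Asf1a (-0.024 to 0.06), Asf1b (-0.122 to 0.023) and Daxx (-0.021 to 0.118). Between days they turned in control for Asf1a (-0.057 to 0), Hira (-0.075 to 0.025) and Nasp (-0.222 to 0.009), and in knockdown for Rbbp7 (-0.053 to 0.062) and Asf1a (-0.011 to 0.099). For the difference of effects they turned for Rbbp4 (-0.028 to 0.157), Asf1b (-0.122 to 0.08) and Daxx (-0.1 to 0.028). The 95% interval of a difference between groups, which is not adjusted for the number of genes, reached 0.183 to either side for the median gene. With 3 arrays a group, differences well under that size were not detectable for a gene of such spread. Larger ones could be missed too, since calls used p-values adjusted over all genes. Between hairpins, Chaf1b at day 3 (-0.43) and Nasp at day 6 (0.27) did not pass.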
